A study of Homo sapiens with 9 samples.

Results

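The 10 genes described here encode NF-kB transcription factor subunits and products that NF-kB is known to induce: NFKB1, NFKB2, RELA, RELB, NFKBIA, NFKBIE, TNFAIP3, BIRC3, ICAM1 and UBD. They were taken by gene symbol from a table of 41041 genes, and all 10 were among the 12662 genes whose mean expression was high enough to be tested. RNA carrying a poly(A) tail was sequenced from SW480, an established line of human colorectal cancer cells, in 3 groups of 3 libraries that the labels call biological replicates. The first group was given sulforaphane (SFN), an isothiocyanate that occurs in broccoli and related plants, together with 5-fluorouracil, a pyrimidine analogue used against colorectal cancer (SFN+5-FU). The second group was given SFN alone at 25 µM, and the third was left untreated (control). All 3 groups, the control included, were kept at 1% oxygen for 48 h. Neither the 5-FU dose nor the SFN dose used beside it is stated in the labels. The time for which the cells were exposed to the compounds is not stated there either. No cells kept in ordinary oxygen and no cells on 5-FU alone are analysed here, so the part that hypoxia or 5-FU had in a level cannot be told apart from the rest of each condition.

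NF-kB is a family of dimeric transcription factors, which inhibitor of kB (IkB) proteins hold in the cytoplasm until a kinase complex marks the inhibitor for degradation. In the canonical branch the released dimer is mostly the NFKB1 product p50 with RELA, and in the non-canonical branch the NFKB2 precursor p100 is processed to p52, which pairs with RELB. Several of the genes that NF-kB switches on encode its own subunits and inhibitors, which makes the pathway feed back on itself, and in the gut epithelium it is known for its part in inflammation and cell survival.

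NF-kB dimers bind DNA elements called kB sites, and the letters around the starts of these genes are shown as a description. RefSeq (build GRCh38.p14) gives 12 start windows, each from 250 bases before to 50 bases after a start, for 8 of the genes; RELB and NFKBIE are named only. Each window was searched on both strands for the 10-base kB consensus and for the 9-base core GGNNNTTCC, whose matches overlap those of the consensus. The consensus was found in 7 of the 12 windows, belonging to 6 of the 8 genes, against 5.91% of all 35116 windows in the RefSeq table (7.09% of 27305 genes). The core was found in 8 of the 12 windows, belonging to 7 of the 8 genes, against 20.1% of all windows (23.5% of genes). The genes were picked as NF-kB subunits and known NF-kB products, so a larger share than over all windows could be foreseen from the choice. A match is a description of letters and not a site in use, and its part in the mRNA levels was not tested. The sequences are given 5′ to 3′ on the strand of the gene, with capitals marking every base inside a match to either motif. NFKBIA, NFKB1 and BIRC3 are shown from 250 bases before the start up to the first base that GENCODE release 29 annotates as untranslated region (UTR), which for NFKBIA takes in all 250 bases. The others are shown as 30 bases around a match, because the same release annotates UTR, of these or of other genes on either strand, in those windows.
NFKBIA (chr14:35404750-35404999, minus strand): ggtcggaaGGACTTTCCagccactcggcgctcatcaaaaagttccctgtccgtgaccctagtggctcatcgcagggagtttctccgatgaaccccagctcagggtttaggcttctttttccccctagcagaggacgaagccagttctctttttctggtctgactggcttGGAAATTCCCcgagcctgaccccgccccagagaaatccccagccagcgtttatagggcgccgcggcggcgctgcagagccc
NFKB1 (chr4:102501109-102501328, plus strand): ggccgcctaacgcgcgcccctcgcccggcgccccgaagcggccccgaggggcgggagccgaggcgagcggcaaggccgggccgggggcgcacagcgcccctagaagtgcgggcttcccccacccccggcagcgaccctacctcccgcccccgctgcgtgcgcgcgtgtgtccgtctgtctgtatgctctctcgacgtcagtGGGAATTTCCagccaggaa
BIRC3 (chr11:102317234-102317449, plus strand): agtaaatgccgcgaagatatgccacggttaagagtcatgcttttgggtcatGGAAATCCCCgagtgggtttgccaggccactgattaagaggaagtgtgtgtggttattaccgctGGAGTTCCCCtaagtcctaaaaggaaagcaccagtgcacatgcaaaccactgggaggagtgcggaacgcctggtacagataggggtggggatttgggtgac
NFKB2, start 2 (chr10:102394462-102394491, plus strand): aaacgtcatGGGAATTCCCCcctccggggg
NFKB2, start 3 (chr10:102395674-102395703, plus strand): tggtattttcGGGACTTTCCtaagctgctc
TNFAIP3 (chr6:137867188-137867217, plus strand): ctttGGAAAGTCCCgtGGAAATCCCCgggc
ICAM1 (chr19:10270924-10270953, plus strand): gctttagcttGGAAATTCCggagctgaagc
UBD (chr6:29559766-29559795, minus strand): aatccaggcaGGGGATTTCCaactcaactc
With the base just before the start counted as −1, the NFKBIA match to the consensus lies at −81 to −72, and a separate match to the core at −242 to −234. In NFKB1 the consensus match lies at −49 to −40 and in UBD at −53 to −44. BIRC3 and TNFAIP3 each hold 2 consensus matches, and ICAM1 holds the core without the consensus, at −186 to −178. NFKB2 holds matches before its start 2 and its start 3 and none before its start 1. Besides the stretches printed, the consensus also matches at −78 to −69 before start 2 and at −176 to −167 before start 3. RELA holds neither motif in either of its 2 windows, which says only that these letters are not in them.

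**Figure D1:**
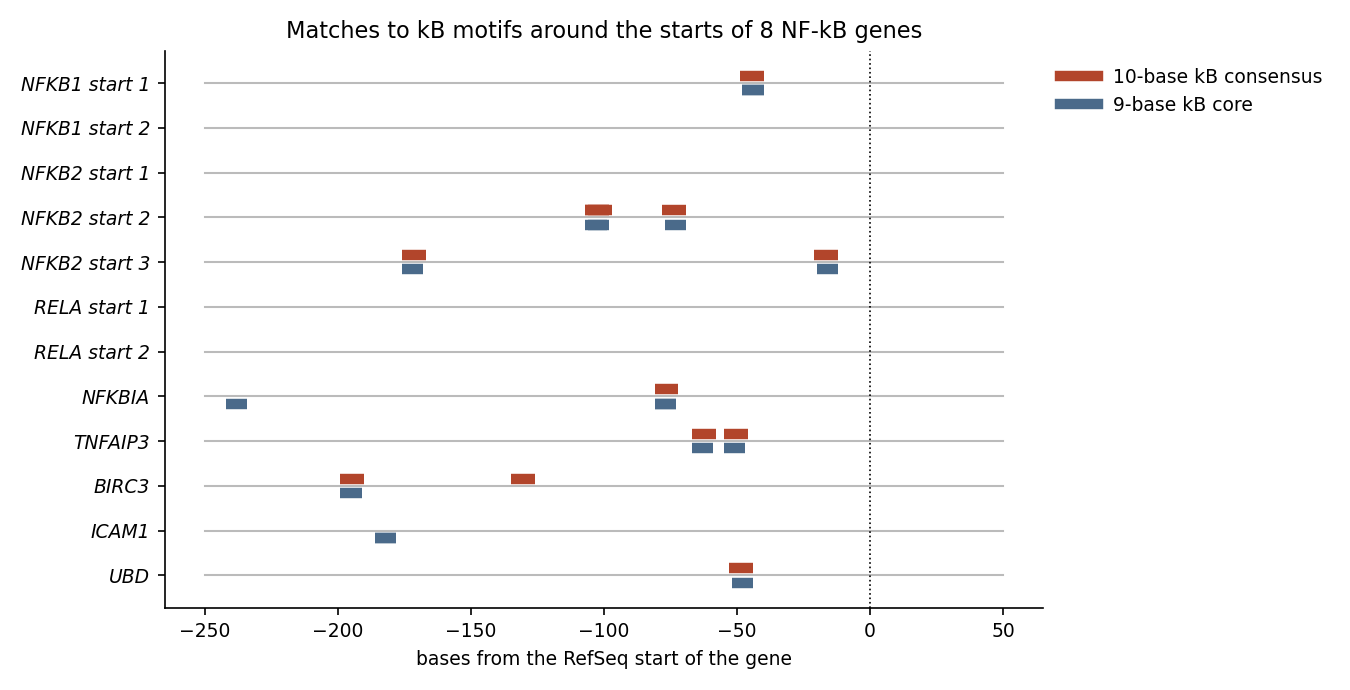
Positions of matches to the 10-base kB consensus (upper bars) and the 9-base core (lower bars) in 12 RefSeq start windows of 8 NF-kB genes, in bases from the annotated start. The 7 windows with a consensus match belong to NFKB1, NFKB2, NFKBIA, TNFAIP3, BIRC3 and UBD, ICAM1 holds only the core, and both RELA windows, NFKB1 start 2 and NFKB2 start 1 are empty.

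Levels are in FPKM (fragments scaled for the length of the transcript and the size of the library), a scale on which different genes can be set side by side. Each library added up to 259184 to 272235 FPKM, while its depth in fragments is unknown. The epithelial marker EPCAM was listed at 114 to 144 FPKM over the 9 libraries, the colon marker KRT20 at 0.05 to 1.39 FPKM, and the leukocyte marker PTPRC and the endothelial marker CDH5 at 0 in all 9. The library labelled SFN replicate 2 stood apart from its group: across the tested genes its Pearson correlation on log2(FPKM + 1) was 0.993 with each of the SFN+5-FU libraries, against 0.963 and 0.968 with the other SFN libraries, as a description with no test. It was kept in the group of its label, and results are also given with it left out where it matters. Differences between groups are on the log2(FPKM + 1) scale, where low genes have their fold changes understated. They come from one limma fit over all 9 libraries, with p values adjusted over all tested genes by the Benjamini-Hochberg method, and the words rose and fell are kept for genes with an adjusted p under 0.05. The comparisons of both treated groups with control share the same 3 control libraries. In bulk RNA, fewer cells of a kind and less RNA per cell cannot be told apart.

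All 10 mRNAs were higher with SFN+5-FU than in control, and 9 of the 10, all except RELA, were higher with SFN than in control. None was lower. Over all tested genes 66.2% were called with SFN+5-FU (38.3% higher and 28.0% lower) and 50.0% with SFN (27.5% higher and 22.5% lower), which is the background for these counts. The 10 genes were chosen with earlier results of these data known, so comparisons with this background are a description only. The median difference over the 10 genes was 0.98 with SFN+5-FU, against 0.097 over all tested genes, and 0.709 with SFN, against 0.053 over all tested genes. In each of the 10 genes every SFN+5-FU library and every SFN library lay above every control library. Such a gap between the 3 libraries of each group occurred in 45.5% of all tested genes for SFN+5-FU above control and in 31.6% for SFN above control. Relative to the control mean, the median over the 10 genes was 0.914, 0.978 and 1.09 in the SFN+5-FU libraries and 0.544, 0.975 and 0.694 in SFN replicates 1, 2 and 3. SFN replicate 2 thus lay among the SFN+5-FU libraries on this measure also.

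**Figure D2:**
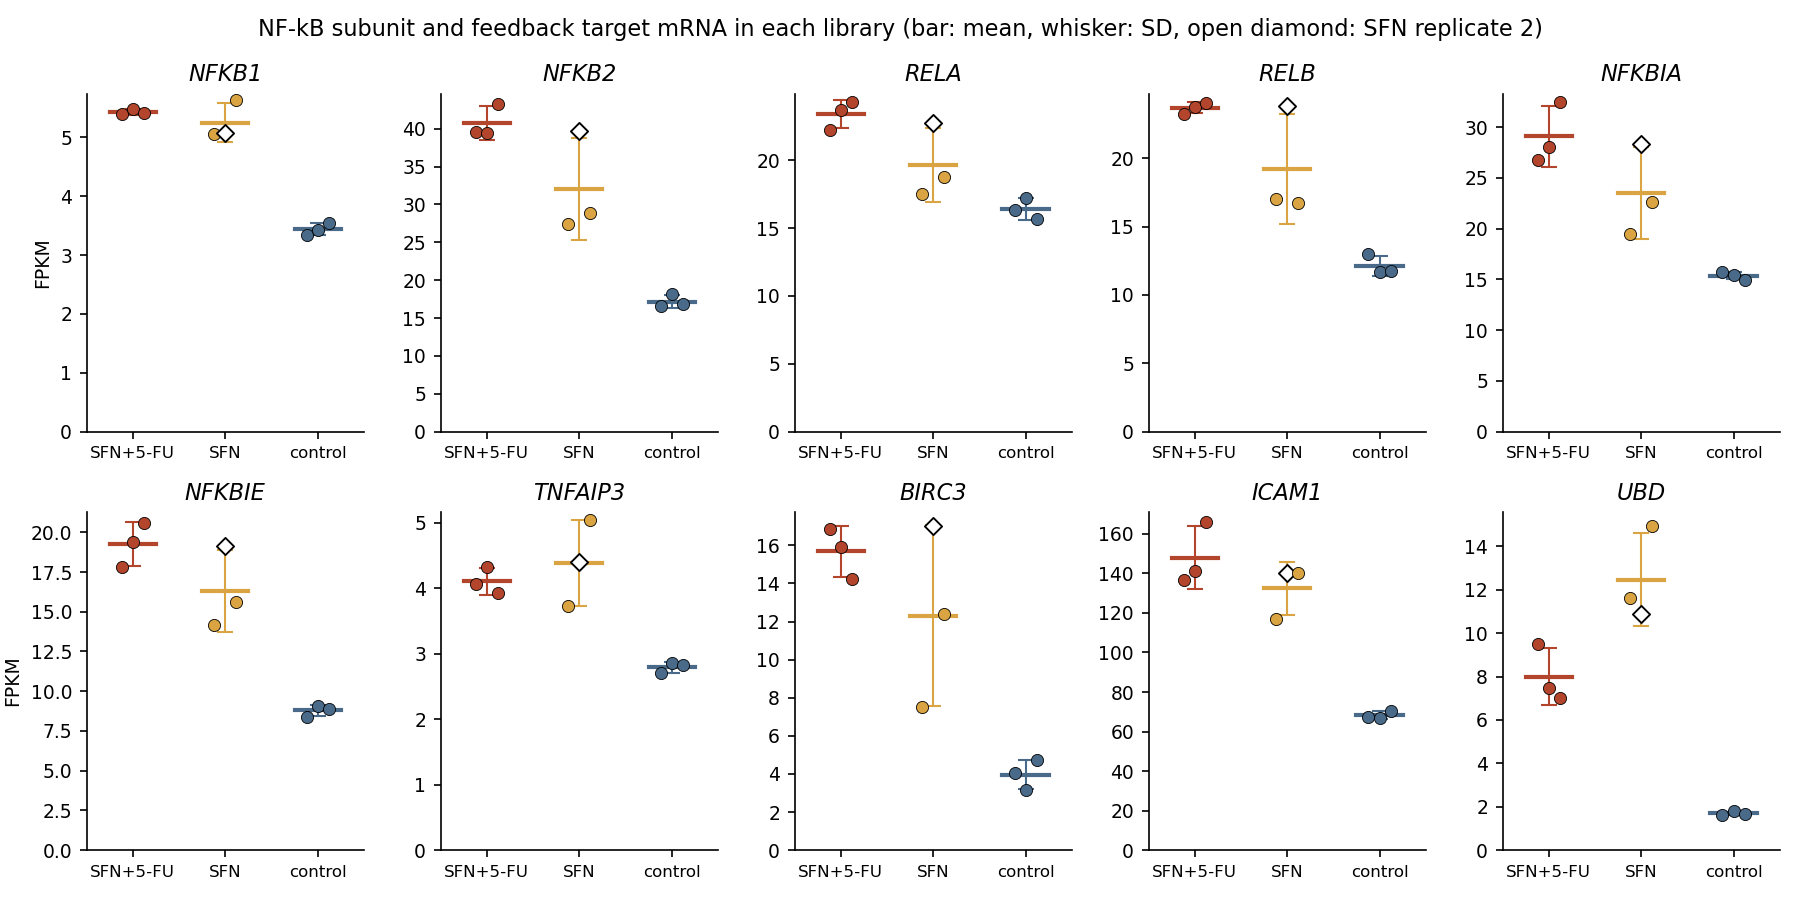
FPKM of the 10 genes in each library, with a panel per gene and the axis starting at 0; points are libraries, bars are group means and whiskers are SD (n = 3), and the open diamond is SFN replicate 2. In every panel the SFN+5-FU and SFN points lie above the control points, and UBD is the panel in which all SFN points also lie above all SFN+5-FU points.

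Among the subunits, NFKB2 and RELB, the partners of the non-canonical branch, had larger differences than NFKB1 and RELA on the log2(FPKM + 1) scale, which understates the low NFKB1. With SFN this order of RELB and NFKB1 turned when SFN replicate 2 was left out, to 0.45 for RELB and 0.51 for NFKB1. As ratios of mean FPKM to control, NFKB2, RELB, NFKB1 and RELA came to 2.37, 1.95, 1.58 and 1.43 with SFN+5-FU and to 1.86, 1.58, 1.53 and 1.20 with SFN, and differences between genes were not tested. NFKB2 had 39.5, 39.4 and 43.3 FPKM in the SFN+5-FU libraries, 27.4, 39.8 and 28.9 FPKM in the SFN libraries and 16.6, 18.1 and 16.8 FPKM in the control libraries. The treated libraries were all well above the control libraries, and the highest SFN value was that of replicate 2, inside the range of SFN+5-FU. NFKB2 rose by 1.20 ± 0.12 with SFN+5-FU (SE; adjusted p = 5.784e-05) and by 0.84 ± 0.12 with SFN (SE; adjusted p = 0.0005941). RELB had 23.3, 23.8 and 24.1 FPKM in the SFN+5-FU libraries, 17.0, 23.8 and 16.8 FPKM in the SFN libraries and 12.96, 11.7 and 11.7 FPKM in the control libraries. The SFN+5-FU libraries were close to one another, while among the SFN libraries replicate 2 again stood at the level of the combined treatment. RELB rose by 0.91 with SFN+5-FU (adjusted p = 0.0001934) and by 0.61 with SFN (adjusted p = 0.002897). Without SFN replicate 2 the SFN differences of NFKB2 and RELB were 0.68 and 0.45, both still called.

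NFKB1, whose precursor p105 gives p50, was the lowest of the 4 subunit genes in all 3 groups. It had 5.39, 5.48 and 5.42 FPKM in the SFN+5-FU libraries, 5.05, 5.07 and 5.63 FPKM in the SFN libraries and 3.34, 3.43 and 3.55 FPKM in the control libraries. The treated groups overlapped with each other and were both above control, and SFN replicate 2 did not stand out here. NFKB1 rose by 0.53 ± 0.07 with SFN+5-FU (SE; adjusted p = 0.0001435) and by 0.49 ± 0.07 with SFN (SE; adjusted p = 0.0003745). RELA, which carries the transactivation domain of the canonical dimer, had 22.3, 23.7 and 24.3 FPKM in the SFN+5-FU libraries, 17.5, 22.8 and 18.8 FPKM in the SFN libraries and 16.3, 17.2 and 15.6 FPKM in the control libraries. SFN replicates 1 and 3 were only slightly above the highest control library. RELA rose by 0.49 with SFN+5-FU (adjusted p = 0.001493), the smallest difference of the 4 subunits there. With SFN its difference was 0.24, with a 95% interval of 0.03 to 0.45 and an adjusted p of 0.0552, and without SFN replicate 2 it was 0.14 (adjusted p = 0.08253). Over the alternatives tried the adjusted p ranged from 0.00863 to 0.1664, and without SFN replicate 1 the difference was 0.32 (adjusted p = 0.0193). REL, the fifth subunit gene and outside the 10, had 0.33 to 0.78 FPKM over all libraries and was too low to be tested.

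The subunit mRNAs were higher in sum and differed in make-up. NFKB1, NFKB2, RELA, RELB and REL together came to 93.9 ± 3.3 FPKM with SFN+5-FU, 76.7 ± 13 FPKM with SFN and 49.8 ± 1.2 FPKM in control (SD, n = 3 each). NFKB2 made up 42.3% to 44.4% of the sum in the SFN+5-FU libraries, 40.6% to 43.2% in the SFN libraries and 33.2% to 35.7% in the control libraries. RELA made up 24.4% to 25.5% with SFN+5-FU, 24.7% to 26.6% with SFN and 32.2% to 33.9% in control. Both shares were apart between each treated group and control, SFN replicates 1 and 3 included, while the RELB share overlapped at 24.7% to 25.5% with SFN+5-FU, 23.8% to 25.9% with SFN and 23.0% to 25.9% in control. The ratio of RELB to RELA was 1.01 ± 0.026 with SFN+5-FU, 0.971 ± 0.078 with SFN and 0.741 ± 0.058 in control (SD, n = 3 each), without overlap of either treated group with control. The shares and ratios are a description and were not tested.

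**Figure D3:**
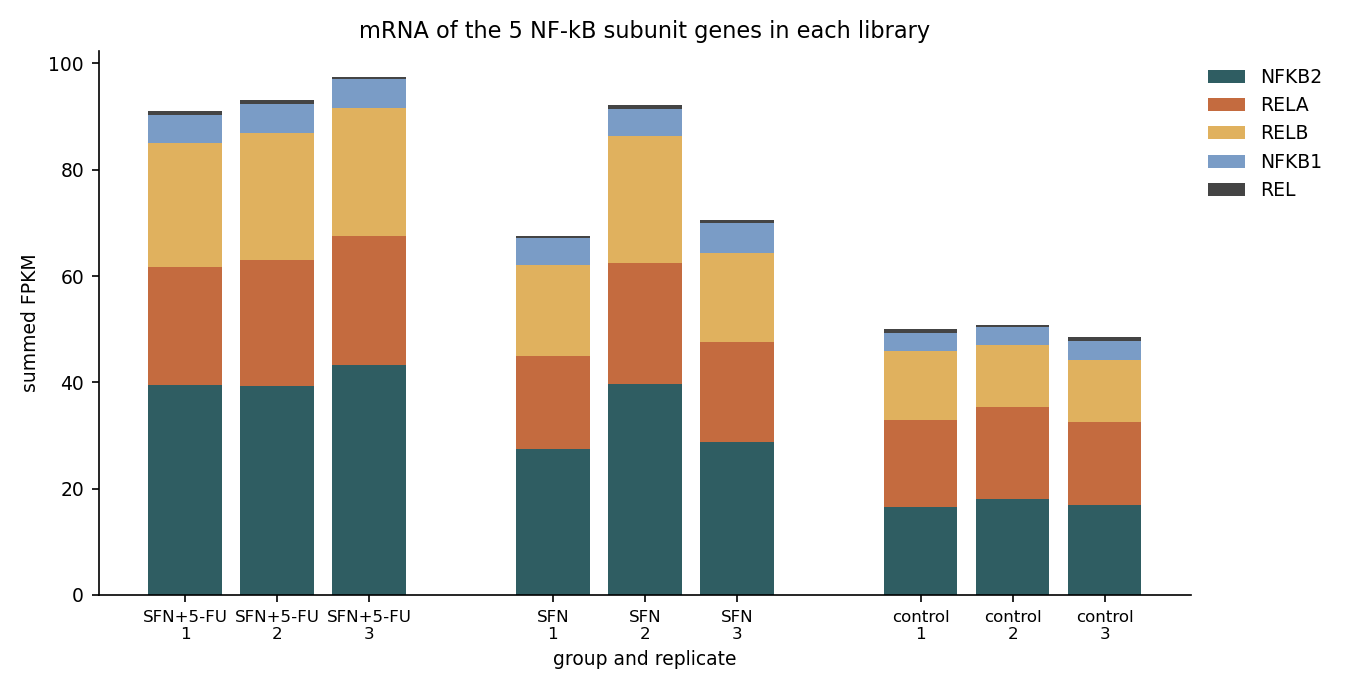
Summed FPKM of the 5 NF-kB subunit genes in each library, stacked by gene, with the SFN+5-FU libraries left, the SFN libraries in the middle and the control libraries right. The stacks reach 91.1 to 97.5 FPKM with SFN+5-FU, 67.6 to 92.1 FPKM with SFN (replicate 2 is the tallest) and 48.5 to 50.8 FPKM in control, and the lowest segment, NFKB2, takes a larger share in the treated libraries.

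The members that restrain the pathway, NFKBIA, NFKBIE and TNFAIP3, rose with both treatments, as did BIRC3. NFKBIA, which encodes IkB alpha, the inhibitor that is resynthesised after each activation, had 26.8, 28.1 and 32.5 FPKM in the SFN+5-FU libraries, 19.4, 28.4 and 22.7 FPKM in the SFN libraries and 15.7, 15.5 and 15.0 FPKM in the control libraries. Only SFN replicate 2 reached the SFN+5-FU range. NFKBIA rose by 0.87 with SFN+5-FU (adjusted p = 0.0003075) and by 0.56 with SFN (adjusted p = 0.005083, and 0.43 without SFN replicate 2). NFKBIE, which encodes IkB epsilon, a slower-acting inhibitor of the same family, had 17.8, 19.4 and 20.6 FPKM in the SFN+5-FU libraries, 14.2, 19.1 and 15.6 FPKM in the SFN libraries and 8.40, 9.09 and 8.88 FPKM in the control libraries. All 3 SFN libraries lay far above control. NFKBIE rose by 1.05 with SFN+5-FU (adjusted p = 4.893e-05) and by 0.81 with SFN (adjusted p = 0.0003051).

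TNFAIP3, which encodes the ubiquitin-editing enzyme A20 that ends signalling from the tumour necrosis factor (TNF) receptor, had 4.07, 4.33 and 3.92 FPKM in the SFN+5-FU libraries, 3.73, 4.40 and 5.04 FPKM in the SFN libraries and 2.70, 2.85 and 2.83 FPKM in the control libraries. The SFN libraries spanned the whole SFN+5-FU range, so that the treated groups overlapped. It rose by 0.43 with SFN+5-FU (adjusted p = 0.003032) and by 0.50 with SFN (adjusted p = 0.002098). BIRC3, which encodes the inhibitor of apoptosis cIAP2, a ubiquitin ligase of the TNF receptor complex, had 16.9, 15.9 and 14.2 FPKM in the SFN+5-FU libraries, 7.53, 17.0 and 12.4 FPKM in the SFN libraries and 4.05, 3.15 and 4.71 FPKM in the control libraries. Its SFN libraries were the most scattered of the 10 genes on the log2 scale, 0.792 to 1.87 above the control mean, and replicate 2 was the highest of all 9 libraries. BIRC3 rose by 1.76 with SFN+5-FU (adjusted p = 0.0002153) and by 1.37 with SFN (adjusted p = 0.001385, and 1.12 without SFN replicate 2).

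ICAM1 encodes an adhesion molecule that binds leukocyte integrins, and it was the most abundant of the 10 mRNAs in each group. It had 137, 141 and 166 FPKM in the SFN+5-FU libraries, 117, 140.2 and 140.3 FPKM in the SFN libraries and 67.3, 66.8 and 70.6 FPKM in the control libraries. All treated libraries were well above the highest control library, and the treated groups overlapped. ICAM1 rose by 1.10 with SFN+5-FU (adjusted p = 2.495e-05) and by 0.94 with SFN (adjusted p = 9.298e-05). In GENCODE release 29, exons of ICAM1 share 815 bases with an antisense gene, and whether the authors' counting used the strand is not stated in the labels.

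UBD encodes FAT10, a ubiquitin-like modifier that targets proteins for degradation and is known as a product of inflammatory signalling. It had 9.48, 7.46 and 7.02 FPKM in the SFN+5-FU libraries, 11.6, 10.9 and 14.9 FPKM in the SFN libraries and 1.61, 1.79 and 1.67 FPKM in the control libraries. UBD was the lowest of the 10 genes in control and was above TNFAIP3 and NFKB1 in every SFN+5-FU and SFN library. Its mean was 4.73 times control with SFN+5-FU, a difference of 1.73 ± 0.13 (SE; adjusted p = 1.486e-05), and 7.38 times control with SFN, a difference of 2.31 ± 0.13 (SE; adjusted p = 8.693e-06). Exons of UBD share 722 bases with GABBR1 on the same strand, so reads may be split between them, and 836 bases with OR2I1P on the opposite strand, where the limit on strand given for ICAM1 also holds. GABBR1 had 1.00 to 1.17 FPKM with SFN+5-FU, 1.04 to 1.34 FPKM with SFN and 2.36 to 2.46 FPKM in control, the opposite direction to UBD.

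By level, the order in control was ICAM1, then NFKB2, RELA and NFKBIA with overlapping neighbours, then RELB, NFKBIE, BIRC3 and NFKB1 (these last overlapping), TNFAIP3 and UBD. With SFN+5-FU the order was ICAM1, NFKB2, NFKBIA, RELB and RELA (overlapping), NFKBIE, BIRC3, UBD, NFKB1 and TNFAIP3, with all other neighbours apart. With SFN the genes from NFKB2 to BIRC3 each overlapped the next in order, and only ICAM1 above them and NFKB1 and TNFAIP3 below them were apart from their neighbours. The 9 libraries fall into 3 groups, so correlations over them carry the differences between groups. The Pearson correlation between pairs of the 10 genes was highest for NFKB2 with NFKBIE (0.993) and lowest for UBD with RELA (0.607), as a description.

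Between SFN+5-FU and SFN, none of the 10 mRNAs passed the threshold in the limma fit with all 9 libraries. In that comparison 0.00790% of tested genes were called, which is 1 gene of 12662, while 6 of the 10 genes and 31.4% of all tested genes had an unadjusted p under 0.05. UBD was the member in which the groups did not overlap: all SFN+5-FU libraries lay below all SFN libraries, as in 10.3% of tested genes. Its difference was −0.58, with a 95% interval of −0.87 to −0.29 (adjusted p = 0.1338). NFKB2 differed by 0.36 with an interval of 0.08 to 0.63 (adjusted p = 0.1338), and BIRC3 by 0.39 with an interval of −0.14 to 0.92 (adjusted p = 0.2634). The intervals of NFKB1, from −0.11 to 0.19, and of TNFAIP3, from −0.28 to 0.14, were the narrowest of those that included 0.

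This outcome turned on SFN replicate 2. In 6 of the 10 genes that library was inside the SFN+5-FU range, as it was in 56.5% of all tested genes. That library was singled out from its values in these data, and only SFN replicates 1 and 3 remain in the group when it is left out. The adjusted p values that follow depend on that choice and are not an independent test of adding 5-FU. Without SFN replicate 2, 7 of the 10 genes were called between SFN+5-FU and SFN, against a background of 51.2% of tested genes. Higher with SFN+5-FU were then NFKB2 (0.52, adjusted p = 0.0002136), RELB (0.46, adjusted p = 0.0002357), RELA (0.35, adjusted p = 0.001595), NFKBIA (0.45, adjusted p = 0.003037), NFKBIE (0.35, adjusted p = 0.003848) and BIRC3 (0.64, adjusted p = 0.01962). UBD was lower (−0.67, adjusted p = 0.002643). NFKB1 (0.02), TNFAIP3 (−0.07) and ICAM1 (0.20, adjusted p = 0.1113) were not called without it either. Whether this library was labelled as it was treated was not tested.

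**Figure D4:**
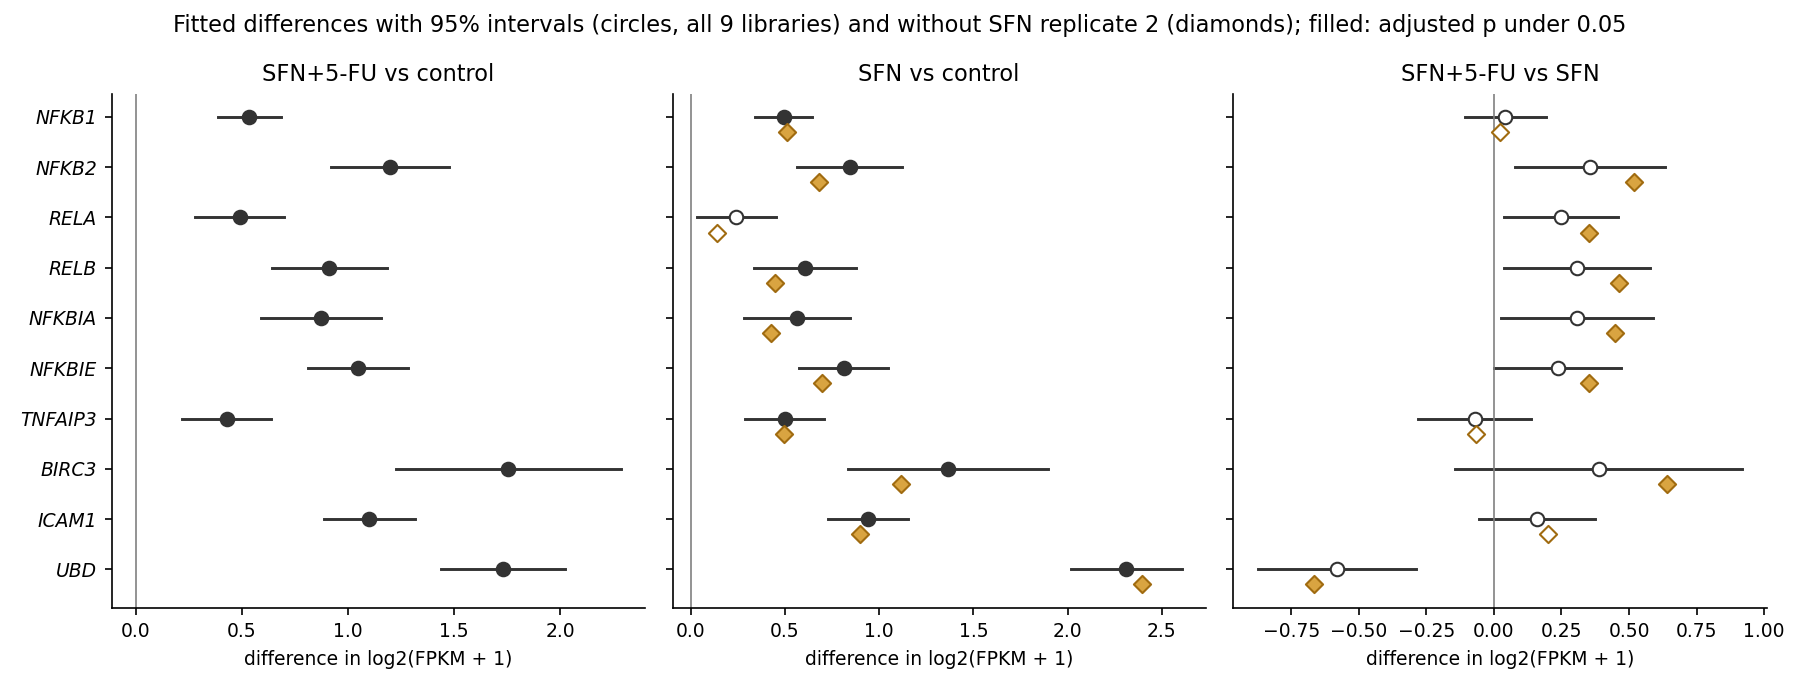
Differences in log2(FPKM + 1) of the 10 genes with 95% intervals in the 3 comparisons (circles, all 9 libraries) and, in both comparisons that use SFN, the same without SFN replicate 2 (diamonds); filled symbols have an adjusted p under 0.05. All circles lie right of 0 in both comparisons with control, with RELA open for SFN, and in the comparison of SFN+5-FU with SFN all circles are open while 7 of the 10 diamonds are filled.

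The rest of the pathway is given by lists, each count to be read against the shares of all tested genes (38.3% higher and 28.0% lower with SFN+5-FU, 27.5% and 22.5% with SFN). The lists too were chosen with earlier results of these data known, so a count above these shares is a description and not a test. Of 6 tested genes for further IkB proteins and for the regulators COMMD1 and NKRF, 4 rose and none fell with SFN+5-FU, COMMD1 among them. With SFN 1 rose and none fell. NFKBIB, which encodes IkB beta, had 47.7, 51.4 and 49.0 FPKM in the SFN+5-FU libraries, 23.7, 49.7 and 25.4 FPKM in the SFN libraries and 18.1, 18.7 and 20.2 FPKM in the control libraries. The high SFN value is that of replicate 2. NFKBIB rose by 1.33 with SFN+5-FU (adjusted p = 0.0008133) and by 0.68 with SFN (adjusted p = 0.032, 0.35 without SFN replicate 2, and not called without any 1 of the 3 control libraries, where the adjusted p reached 0.08782). BCL3, a nuclear IkB protein that binds p50 and p52, rose by 0.71 with SFN+5-FU (adjusted p = 0.003716). NFKBID, another nuclear IkB protein, rose by 0.40 and COMMD1, a promoter of RELA degradation, by 0.33, and these calls were lost without SFN+5-FU replicate 3 (adjusted p up to 0.07344 and 0.05424; that of NFKBID also without control replicate 3). NFKBIZ and NKRF were not called in either comparison with control, at −0.15 and −0.02 with SFN+5-FU and −0.16 and 0.19 with SFN.

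Among 22 kinases and adaptors that lead to IkB degradation, 8 rose and 4 fell with SFN+5-FU, and 6 rose and 3 fell with SFN. TRAF1, an adaptor of TNF family receptors and itself a known NF-kB target, had 19.1, 19.0 and 22.0 FPKM in the SFN+5-FU libraries, 5.94, 19.8 and 7.71 FPKM in the SFN libraries and 3.50, 3.91 and 4.03 FPKM in the control libraries. SFN replicates 1 and 3 lay between control and SFN+5-FU. TRAF1 rose by 2.13 with SFN+5-FU (adjusted p = 0.0004618) and by 1.17 with SFN (adjusted p = 0.01552, 0.69 without SFN replicate 2, and an adjusted p of 0.05012 without control replicate 1). MAP3K14, which encodes NIK, the kinase that starts the non-canonical branch, had 17.5, 18.4 and 17.6 FPKM in the SFN+5-FU libraries, 8.29, 18.0 and 8.99 FPKM in the SFN libraries and 6.83, 6.94 and 6.77 FPKM in the control libraries. It rose by 1.26 with SFN+5-FU (adjusted p = 0.0009801). With SFN its difference was 0.62 (adjusted p = 0.04248, 0.30 without SFN replicate 2, and not called without any 1 of the control or SFN+5-FU libraries, where the adjusted p reached 0.09653).

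The IkB kinase subunits did not move together. CHUK, the catalytic subunit IKK alpha, rose by 0.86 with SFN+5-FU (adjusted p = 0.0007201) and by 0.60 with SFN (adjusted p = 0.00733). IKBKG, a further subunit named after its values were seen, rose by 0.52 with SFN+5-FU (adjusted p = 0.00189). With SFN it rose by 0.33 (adjusted p = 0.02683), a call lost when single libraries were left out (adjusted p up to 0.08938). IKBKB, the catalytic subunit IKK beta, was also named after its values were seen. It had 1.02, 0.95 and 1.02 FPKM in the SFN+5-FU libraries, 1.51, 1.12 and 1.56 FPKM in the SFN libraries and 2.31, 2.46 and 2.48 FPKM in the control libraries. IKBKB fell by 0.77 with SFN+5-FU (adjusted p = 8.611e-05) and by 0.52 with SFN (adjusted p = 0.001226).

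Of 15 genes of the ubiquitin machinery that acts on the pathway, 6 rose and 4 fell with SFN+5-FU, and 4 rose and 1 fell with SFN. TNIP2, a partner of A20, rose by 0.96 with SFN+5-FU (adjusted p = 0.0008521), and so did SPATA2, an adaptor for the deubiquitinase CYLD (0.79, adjusted p = 0.001108), and CYLD itself (0.57, adjusted p = 0.002217). With SFN the calls of TNIP2 (0.56) and SPATA2 (0.42) were lost when single libraries were left out, with adjusted p up to 0.05883 and 0.104, and without SFN replicate 2 the differences were 0.32 and 0.23. TNIP2 lost its call without control replicate 1 or 3, and SPATA2 without any 1 of the control or SFN+5-FU libraries. RBCK1, the HOIL-1 subunit of the linear ubiquitin ligase, fell by 0.45 with SFN+5-FU (adjusted p = 0.001019) and by 0.55 with SFN (adjusted p = 0.0005585).

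Upstream, receptors were mixed and most tested ligands fell. Of 11 tested receptor genes of 17 listed, 7 rose and 3 fell with SFN+5-FU, and 3 rose and 1 fell with SFN. TNFRSF10A, a death receptor for the ligand TRAIL, rose by 1.31 with SFN+5-FU (adjusted p = 7.717e-05) and by 0.87 with SFN (adjusted p = 0.001145). TNFRSF12A, the receptor of the cytokine TWEAK, had 220.2, 236 and 263 FPKM in the SFN+5-FU libraries, 96.4, 233 and 109 FPKM in the SFN libraries and 78.0, 77.9 and 88.0 FPKM in the control libraries. It rose by 1.55 with SFN+5-FU (adjusted p = 0.0009527). With SFN it was 0.73 (adjusted p = 0.04984, 0.34 without SFN replicate 2, and not called without any 1 of the control or SFN+5-FU libraries). EDAR, the receptor of ectodysplasin, fell by 1.10 with SFN+5-FU (adjusted p = 8.834e-05) and by 0.85 with SFN (adjusted p = 0.0005718).

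Of 13 ligand genes, 5 were high enough to be tested, and of these 4 fell with SFN+5-FU, 3 fell with SFN and none rose (with SFN, 1 rose under a correction for GC content and length). LTA, which encodes lymphotoxin alpha, was too low to be tested and went the other way: it was listed at 0.55 to 0.99 FPKM with SFN+5-FU, 0.58 to 1.14 FPKM with SFN and 0.10 to 0.22 FPKM in control, and was named after its values were seen. TNFSF10, which encodes TRAIL, had 3.82, 2.43 and 2.96 FPKM in the SFN+5-FU libraries, 3.91, 3.51 and 3.00 FPKM in the SFN libraries and 7.34, 7.52 and 6.57 FPKM in the control libraries. TNFSF12, which encodes TWEAK, fell by 0.88 with SFN+5-FU (adjusted p = 7.136e-05) and by 0.59 with SFN (adjusted p = 0.0009464). TNF itself, named after its values were seen, had 1.74 to 2.12 FPKM with SFN+5-FU, 2.38 to 4.16 FPKM with SFN and 3.49 to 4.22 FPKM in control. TNF fell by 0.75 with SFN+5-FU (adjusted p = 0.001554), and with SFN its difference was −0.25 (adjusted p = 0.1735).

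Of other genes known as NF-kB targets, 26 of 35 listed were tested. With SFN+5-FU 17 rose and 2 fell, where 38.3% of all tested genes rose and 28.0% fell, and with SFN 11 rose and 2 fell, where 27.5% of all tested genes rose and 22.5% fell. Their median difference was 0.762 with SFN+5-FU and 0.551 with SFN, the second falling to 0.355 without SFN replicate 2. CD83, a surface protein of activated immune cells, had 19.1, 18.9 and 19.0 FPKM in the SFN+5-FU libraries, 9.04, 19.6 and 9.88 FPKM in the SFN libraries and 5.48, 5.58 and 4.61 FPKM in the control libraries. SFN replicates 1 and 3 were above control and below SFN+5-FU. CD83 rose by 1.69 with SFN+5-FU (adjusted p = 0.0002257) and by 1.08 with SFN (adjusted p = 0.004081). PLAU, the urokinase protease, rose by 1.98 with SFN+5-FU (adjusted p = 0.001247), and with SFN its difference was 0.91 (adjusted p = 0.06349, and 0.40 without SFN replicate 2). IL32, an inflammatory cytokine, had 17.9, 18.2 and 21.7 FPKM in the SFN+5-FU libraries, 26.0, 19.7 and 30.2 FPKM in the SFN libraries and 9.65, 9.56 and 9.40 FPKM in the control libraries. As in UBD, SFN replicates 1 and 3 were the highest of all 9 libraries. IL32 rose by 0.94 with SFN+5-FU (adjusted p = 0.0003557) and by 1.30 with SFN (adjusted p = 0.0001176).

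Because UBD and ICAM1 are also induced by interferon gamma, interferon response genes were counted as well. Of 18 tested of 25 listed, 12 rose and 1 fell with SFN+5-FU, and 11 rose and 1 fell with SFN. B2M, the light chain of major histocompatibility complex class I, rose by 0.81 with SFN+5-FU (adjusted p = 4.1e-05) and by 0.62 with SFN (adjusted p = 0.0002686). IRF1, a transcription factor that is also among the NF-kB targets counted above, rose by 0.84 with SFN+5-FU (adjusted p = 0.0001666) and by 0.58 with SFN (adjusted p = 0.002018). The class I heavy chain gene HLA-C rose by 0.76 with SFN+5-FU (adjusted p = 0.0001733) and by 0.50 with SFN (adjusted p = 0.002837). STAT2, MX1 and OAS1 were named after their values were seen. STAT2 fell, at −0.31 with SFN+5-FU (adjusted p = 0.006718) and −0.37 with SFN (adjusted p = 0.003933). MX1 and OAS1 were not called, at 0.07 and −0.02 with SFN+5-FU and −0.07 and −0.17 with SFN. Without SFN replicate 2, OAS1 was called lower with SFN (−0.31, adjusted p = 0.005678).

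Ubiquitin-like modifiers and partners of FAT10 were taken as a list because of UBD. Of 17 genes, all tested, 14 rose and 1 fell with SFN+5-FU, and 10 rose and 1 fell with SFN. SQSTM1, the autophagy receptor p62, had 171, 184 and 192 FPKM in the SFN+5-FU libraries, 123, 170.2 and 126 FPKM in the SFN libraries and 92.7, 95.7 and 101 FPKM in the control libraries. It rose by 0.91 with SFN+5-FU (adjusted p = 0.000171) and by 0.51 with SFN (adjusted p = 0.005685). UFM1, another ubiquitin-like modifier, rose by 1.18 with SFN+5-FU (adjusted p = 0.001545), and with SFN its difference was 0.53 (adjusted p = 0.07901). The one that fell was HDAC6, a deacetylase that binds FAT10 and ubiquitin, with 1.19, 1.28 and 1.34 FPKM in the SFN+5-FU libraries, 1.97, 1.38 and 1.68 FPKM in the SFN libraries and 4.83, 4.65 and 4.20 FPKM in the control libraries.

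**Figure D5:**
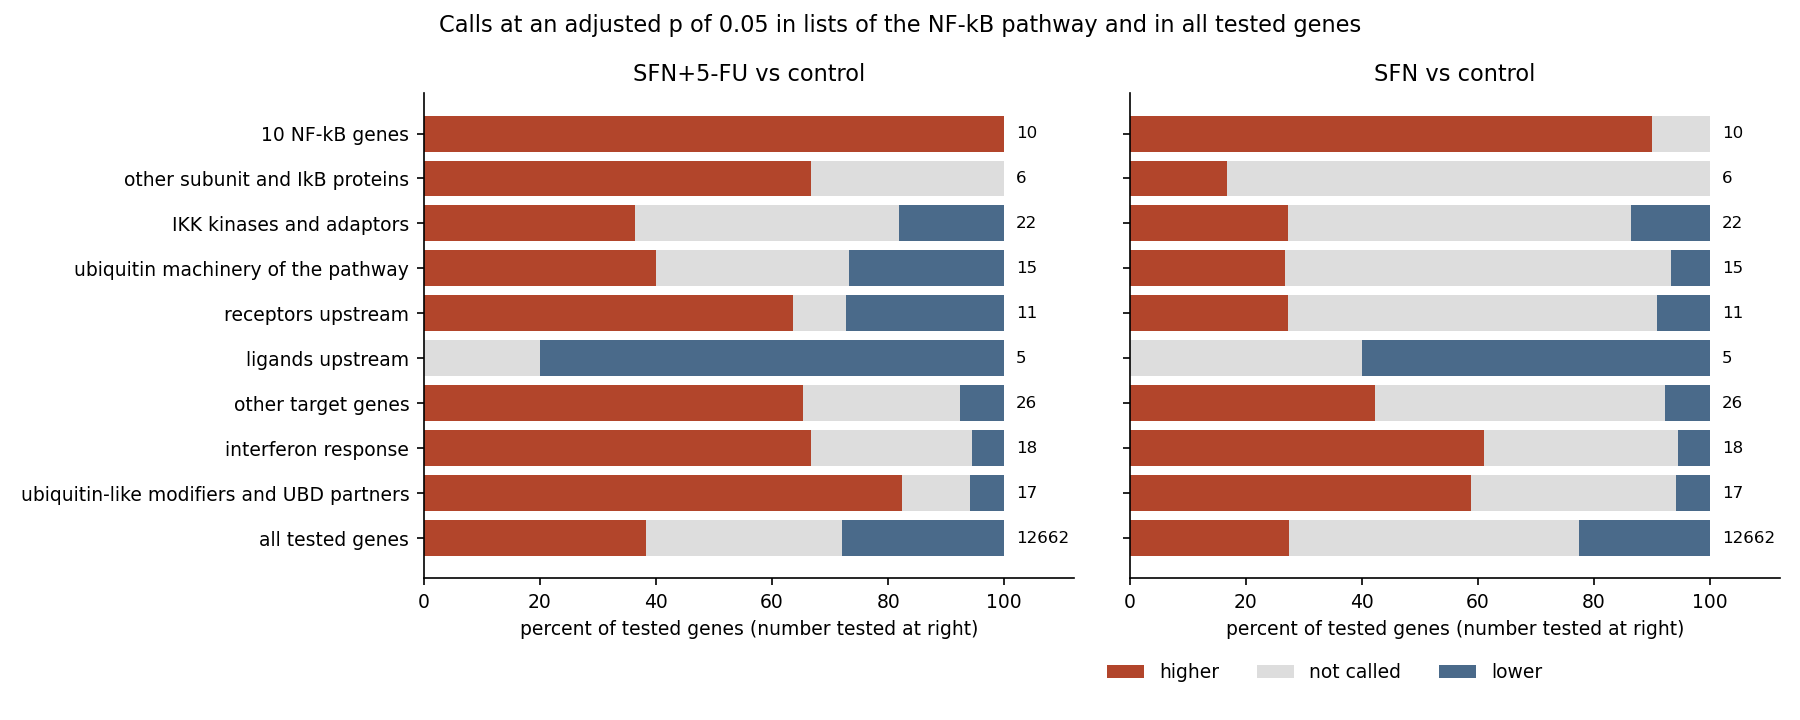
Share of tested genes called higher, not called or called lower at an adjusted p of 0.05, for SFN+5-FU against control (left) and SFN against control (right), in the 10 NF-kB genes, the lists around them and all 12662 tested genes, with the number tested at the right of each bar. The 10 genes are all higher with SFN+5-FU and 9 of 10 with SFN, while the 5 tested ligand genes have no higher call in either comparison.

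In the comparison of SFN+5-FU with SFN, no gene of these lists was called with all 9 libraries. Without SFN replicate 2, 14 of the 26 other target genes were higher and 5 lower, 11 of the 22 kinases and adaptors were higher and 5 lower, and 12 of the 18 interferon response genes were higher and 1 lower. The background for these counts is 3774 higher and 2704 lower over all 12662 tested genes in the same comparison. The limit given above, that the library left out was singled out from its values, also holds here. In SFN against control the same omission took the other target genes to 14 higher and 4 lower and the kinases and adaptors to 7 higher and 5 lower, while over all 12662 tested genes it gave 3798 higher and 3402 lower, against 3478 and 2855 with all libraries.

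Markers of other cells moved as well. Of 7 immune markers 3 were high enough to be tested, and their summed level was 7.96 to 11.4 FPKM with SFN+5-FU, 5.60 to 11.0 FPKM with SFN and 5.03 to 5.53 FPKM in control. CD68, a lysosomal protein of macrophages, rose by 2.42 with SFN+5-FU (adjusted p = 6.383e-05) and by 1.59 with SFN (adjusted p = 0.0009318), while CD14, a monocyte receptor, fell by 0.40 with SFN+5-FU (adjusted p = 0.006615) and LYZ by 0.76 (adjusted p = 0.02457, and up to 0.09105 with 1 library left out). The LYZ call was lost without control replicate 2 or 3 or without SFN+5-FU replicate 1 or 3. PTPRC, which defines leukocytes, was at 0 in all libraries. Of 6 stromal and endothelial markers only COL1A1 was tested, and the summed level was 1.02 to 1.05 FPKM with SFN+5-FU, 0.88 to 1.31 FPKM with SFN and 2.51 to 2.92 FPKM in control. Of 7 tested epithelial markers, 6 fell and none rose with SFN+5-FU, and 4 fell and none rose with SFN, among them CDH1 and KRT19 in both. CDH1, the adhesion protein E-cadherin, had 4.65 to 5.82 FPKM with SFN+5-FU, 4.30 to 6.51 FPKM with SFN and 12.7 to 15.4 FPKM in control. The part of these markers in the levels of the 10 genes was not tested.

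The genes most like 4 of the members over the 9 libraries, by Pearson correlation of log2(FPKM + 1) among genes of at least 5 FPKM, were SNRPA1 (0.992), VPS9D1-AS1 (0.990) and TCOF1 (0.990) for UBD, and RFC4, PABIR2 and MPHOSPH10 (0.997, 0.997 and 0.996) for BIRC3. For ICAM1 they were WDR74 (0.997), MRPS12 (0.993) and RBIS (0.993). For NFKBIA they were SRXN1 (0.995), IRF1 (0.994) and VPS72 (0.992), of which IRF1 is also a known NF-kB target. The 9 points carry the group differences and the shift of SFN replicate 2. The 3 genes were taken as the highest of about 6811 in each case, so these correlations describe likeness only.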

How the data were processed

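Gene-level FPKM values were used as deposited by the authors. Per the submitters' processing notes, fastp, StringTie and edgeR were used, with no versions given. The aligner, genome build and annotation were not given in the sources used here. Per the labels' protocols, the libraries were poly(A)-selected and dUTP-marked. FPKM is given to 2 decimals, so depth is unknown. Of 41041 identifiers, 41002 matched the name table. The 12662 genes that averaged 1 FPKM or more across all 9 libraries were taken as log2(FPKM + 1), with no further scaling of the deposited values, and fitted with limma 3.58.1 in R 4.3.3 (with a mean-variance trend; the residual degrees of freedom were 6 and the prior ones 3.2) in 3 contrasts. P values are two-sided and adjusted by the Benjamini-Hochberg method over all tested genes within a contrast. The p values set differences between groups against the spread within groups. Nothing in the labels beyond "biological" says how the replicates were separated, so what that spread stands for is not known. The script was tested on simulated data with independent noise. No simulated library resembled another group, so that test does not bear on SFN replicate 2.

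The 10 genes and all gene lists were chosen with earlier results of these data known. Named genes were drawn from the members, the further subunit, IkB and regulator genes, the 3 called genes of largest change in each list and comparison, and the 3 genes most like each of UBD, BIRC3, ICAM1 and NFKBIA. Of 35 further target genes, SOD2 was not matched. Promoter sequences are from RefSeq and exon overlaps from GENCODE release 29. Replicate numbers were not treated as pairs: of 9 same-number pairs of libraries, the deviations of 1 pair from their group means correlated above 0.1 (all pairs −0.143 to 0.107).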

Additional observations from a re-analysis of the deposited data

How the results depend on the processing

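For each of the 3 comparisons, 21 alternatives were run (filters, pseudocounts, scaling, variance model, replicate block, GC and length correction, and each library left out in turn). Against control, all members other than RELA with SFN kept their direction and their call under each alternative that tested them. A filter at a mean of 5 FPKM left NFKB1 and TNFAIP3 out, so that 8 members were called with SFN+5-FU and 7 with SFN. Of the 6939 genes it kept, 3189 were called higher and 1714 lower with SFN+5-FU, and 2489 and 1399 with SFN. RELA with SFN was called under library weights (adjusted p = 0.01226), the GC and length correction (0.00863), the replicate block (0.04644) and without SFN replicate 1 (0.0193). A pseudocount of 5 gave smaller differences for SFN+5-FU and SFN, at 0.95 and 1.38 for UBD, 0.31 and 0.28 for NFKB1 and 0.22 and 0.27 for TNFAIP3, and quantile normalization did so for RELA, at 0.31 and 0.14. The number of members called between SFN+5-FU and SFN was 0 with all libraries and 8 with library weights (background 58.7%), where SFN replicate 2 had the lowest weight, 0.089; with 1 library left out it ranged from 0 to 7, the 7 being without SFN replicate 2. In that comparison 2 uncalled differences changed sign, NFKB1 to −0.026 with library weights and TNFAIP3 to 0.014 without SFN replicate 3; with 1 library left out TNFAIP3 ranged from −0.162 to 0.014. With the replicate block, 10 members were called with SFN+5-FU, 10 with SFN and 0 between SFN+5-FU and SFN, and apart from RELA with SFN no member call changed. Of all 12662 tested genes the block called 4710 higher and 3441 lower with SFN+5-FU, and 3295 and 2743 with SFN. Scaling moved the median of all tested genes by less than 0.1. The balance of all calls turned with median-of-ratios scaling, which called 4066 genes higher and 4152 lower with SFN+5-FU (4847 and 3540 as deposited) and 2977 higher and 3300 lower with SFN (3478 and 2855), and leaving out mitochondrial transcripts gave 4032 higher and 4111 lower with SFN+5-FU and 2898 higher and 3352 lower with SFN. The unknown depth limits what can be said of genes near 1 FPKM, such as IKBKB, HDAC6 and GABBR1.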
